A study of Mus musculus with 27 samples.

Results

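The genes of the circadian clock were followed in RNA-seq libraries of mouse embryonic fibroblasts (MEFs) with and without the long noncoding RNA Firre. The members were the 10 rows of the gene table whose symbol was Arntl, Clock, Per1, Per2, Per3, Cry1, Cry2, Nr1d1, Nr1d2 or Dbp, out of 37310 rows in all. They were selected by symbol. The study asked whether a boundary between chromosome domains on the X survives loss of the Firre locus, which binds much CTCF, and its RNA-seq covered WT and Firre KO MEFs of each sex. There were 12 libraries in 4 groups of 3: female WT, female KO, male WT and male KO. KO cells carried a deletion of the Firre locus made by recombination between loxP sites, and WT cells carried none. The MEFs were primary cultures from individual mid-gestation embryos without head, limbs and viscera. No treatment, clock synchronisation or harvest time is given for any library in the sources used here, so the hour at which a culture was lysed is unknown. The labels do not say whether the replicates of a group came from separate embryos or cultures, so the p-values measure the spread between these libraries, which may be technical. Neither sex nor genotype can be told apart from embryo of origin, since female and male MEFs, and WT and KO MEFs, come from different embryos.

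The circadian clock is a feedback loop of transcription factors that runs in nearly every mammalian cell, fibroblasts included. The proteins of Arntl (also called Bmal1) and Clock pair up and bind E-box sequences, and they switch on the Per and Cry genes, the Nr1d genes (also called Rev-erb) and Dbp. PER and CRY proteins then block that pair, and the NR1D1 and NR1D2 proteins repress Arntl through RORE sequences, so in a synchronised population Arntl RNA peaks while Nr1d1, Per and Dbp RNA are low. In cultured fibroblasts the cells drift out of phase with each other unless a serum or glucocorticoid pulse or a change of medium aligns them.

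Promoter windows are shown first for 4 members, because the arms of the loop act on each other through short motifs in promoters. Windows run from 250 bases before to 50 bases after a RefSeq start (build GRCm38.p6, a later build than the mm9 of the gene table), and they were given for 9 of the 10 members, in 13 windows. Per2 had none. The motifs searched were the E-box CACGTG, the related CACGTT, the D-box TTANNTAA, the RORE half-site TNGGTCA and a longer RORE, GTAGGTNA, which holds the half-site when its N is C. All were searched on both strands. Capitals below mark the longer RORE in Arntl (chr7:113207261-113207560, + strand), the E-box in Per1 (chr11:69098699-69098998, + strand), the E-box and the reverse complement of CACGTT in Cry1 (chr10:85185005-85185304, - strand), and the D-boxes in Per3 (chr4:151044616-151044915, - strand).
Arntl: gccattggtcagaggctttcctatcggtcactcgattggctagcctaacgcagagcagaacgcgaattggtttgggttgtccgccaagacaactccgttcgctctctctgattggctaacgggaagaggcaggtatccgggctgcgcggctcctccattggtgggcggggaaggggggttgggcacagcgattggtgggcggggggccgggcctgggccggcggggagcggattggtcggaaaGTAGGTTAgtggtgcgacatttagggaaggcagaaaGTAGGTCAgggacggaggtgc
Per1: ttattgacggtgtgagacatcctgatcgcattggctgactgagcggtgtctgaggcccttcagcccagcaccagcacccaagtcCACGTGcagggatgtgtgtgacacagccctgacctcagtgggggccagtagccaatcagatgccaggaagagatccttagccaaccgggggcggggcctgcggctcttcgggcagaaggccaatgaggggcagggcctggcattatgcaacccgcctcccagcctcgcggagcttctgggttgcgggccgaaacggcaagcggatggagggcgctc
Cry1: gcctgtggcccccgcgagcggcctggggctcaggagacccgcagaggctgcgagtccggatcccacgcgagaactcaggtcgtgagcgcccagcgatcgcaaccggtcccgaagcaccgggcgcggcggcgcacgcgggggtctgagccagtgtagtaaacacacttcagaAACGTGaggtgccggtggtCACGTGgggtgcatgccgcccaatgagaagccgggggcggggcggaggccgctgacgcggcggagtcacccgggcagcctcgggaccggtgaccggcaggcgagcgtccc
Per3: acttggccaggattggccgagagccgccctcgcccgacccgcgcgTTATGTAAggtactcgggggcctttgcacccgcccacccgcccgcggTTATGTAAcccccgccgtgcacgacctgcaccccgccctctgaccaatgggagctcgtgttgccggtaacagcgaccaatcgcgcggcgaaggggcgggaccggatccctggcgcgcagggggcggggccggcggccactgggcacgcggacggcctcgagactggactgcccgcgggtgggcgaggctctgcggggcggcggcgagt

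The Arntl window shown held the longer RORE at 7 bases before and at 29 bases after the start, and Arntl was the only one of the 9 members with a window to hold it. Of all 27025 genes with windows of this length (32851 windows), 2.49% held that motif in at least 1 window. The Per1 window shown held an E-box 166 bases before the start, while the other Per1 window held none, and the Cry1 window held one 60 bases before the start. An E-box was found in 8.09% of all genes. CACGTT occurred in Cry1, Cry2 and Nr1d1 and in 5.44% of all genes. The 2 D-boxes of Per3 lay 205 and 158 bases before the start, and 6.93% of all genes held a D-box. The RORE half-site was found in Arntl, Per3 and Cry2 and in 12.4% of all genes. The windows of Clock, Nr1d2 and Dbp held none of the 5 motifs. These are matches of letters and were not tested for binding.

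Totals ran from 42986516 to 65454660 expected counts per library, and every male library was deeper than every female library. Firre itself (row 6720401G13Rik) stood at 1.99 to 2.43 CPM (counts scaled to a common library size) in the female WT libraries and at 4.48 to 4.95 CPM in the male WT libraries, and at 0 in all 6 KO libraries, as the labels say. Col1a1, the main fibroblast collagen, was at 2147 CPM or more in every library. The summed CPM of 6 macrophage markers was 30.6 to 97.7 in female libraries and 6.09 to 12.6 in male libraries, and all 6 were higher in female cells in both genotypes. The male libraries numbered 3, in WT and in KO, stood apart from the other male libraries: for 52.3% of the 15387 genes tested, number 3 was the highest or the lowest of the 3 libraries in both male genotypes, against 17.3% for number 1 and 25.2% for number 2. Values without these 2 libraries, an alternative chosen after seeing the data, are given beside the results they changed most. They were also the shallowest male libraries, at 53684288 and 51521907 counts.

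All 10 members were expressed and passed the filter on low counts. Expected counts per library ran from 2770 to 4847 for Clock, which had the most, and from 61.6 to 194 for Dbp, which had the fewest. Levels between genes were compared as CPM per kilobase of merged exon (CPM/kb). In female WT cells Nr1d1 had the highest level, at 10.5 ± 0.643 CPM/kb (SD, n = 3), and its range lay above that of the next gene, Nr1d2, at 8.18 ± 0.259 CPM/kb. Arntl at 7.99 ± 1.03 CPM/kb overlapped with both Nr1d2 and Clock, the latter at 7.29 ± 0.245 CPM/kb. Cry1, Cry2 and Per1 followed at 4.86 ± 0.236, 4.52 ± 0.0824 and 4.32 ± 0.175 CPM/kb, with overlapping neighbours.

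Per2, Dbp and Per3 formed the low end in every group. In female WT cells they stood apart from each other at 1.07 ± 0.0605, 0.527 ± 0.0256 and 0.374 ± 0.0199 CPM/kb. This order depends on the merged exon length, since by CPM alone Per3 (3.596) was above Dbp (1.553) there. In male WT cells Arntl led, at 11.9 ± 0.642 CPM/kb and above the range of Nr1d1 (9.49 ± 1.73 CPM/kb), while Per3 (0.773 ± 0.0633 CPM/kb) and Dbp (0.741 ± 0.231 CPM/kb) overlapped. In male KO cells Arntl, Nr1d2, Nr1d1 and Clock overlapped from neighbour to neighbour, from 10.9 ± 0.81 CPM/kb down to 8.77 ± 0.353 CPM/kb. In female KO cells Nr1d1 and Arntl overlapped at the top, at 10.1 ± 0.368 and 9.30 ± 0.712 CPM/kb.

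**Figure D1:**
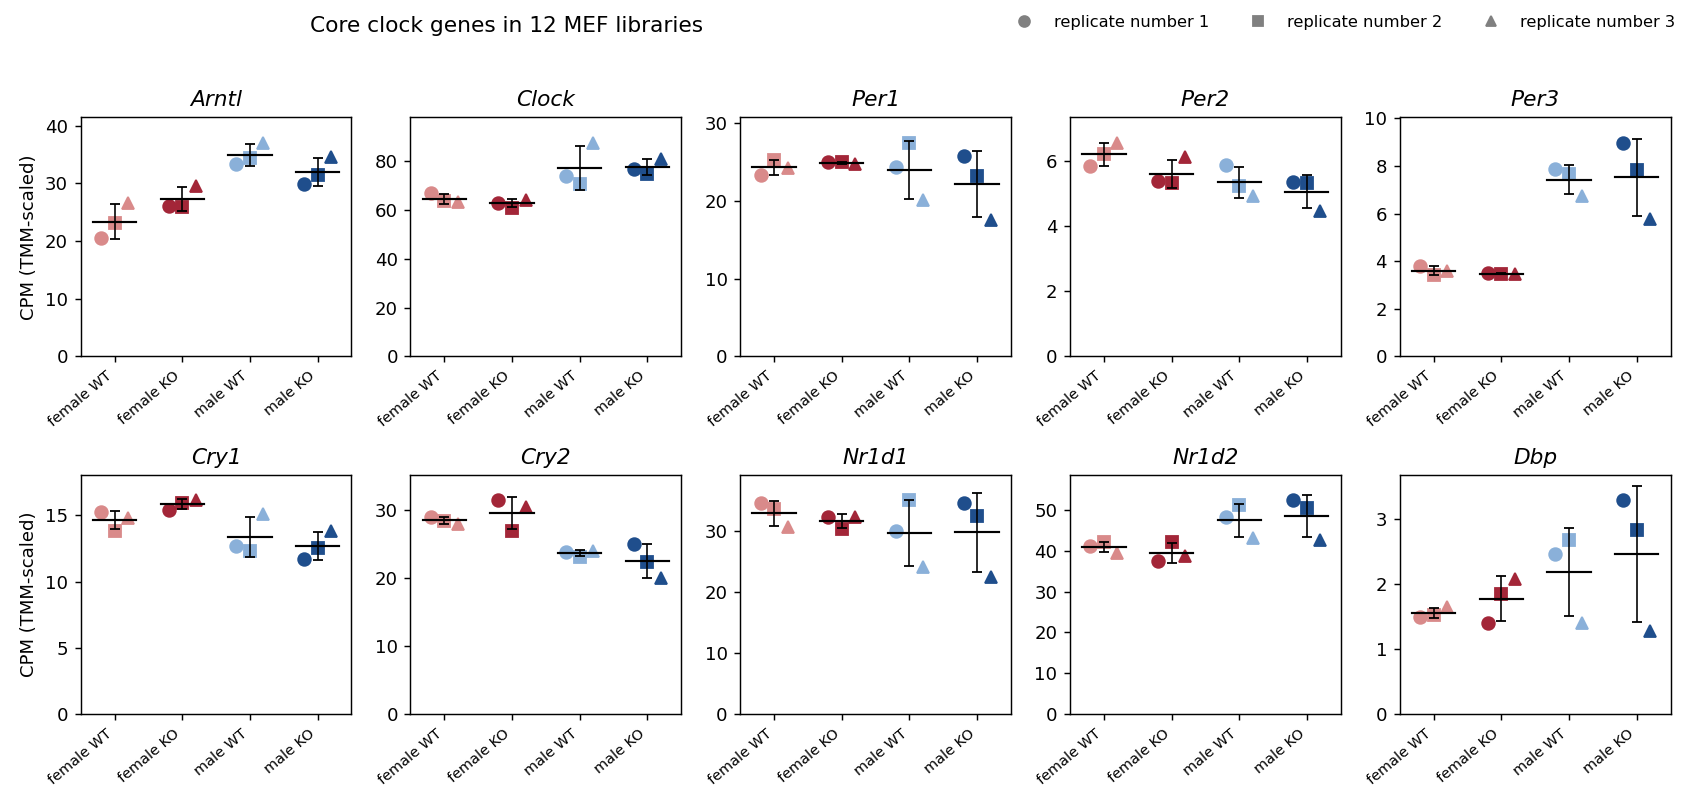
CPM (scaled with TMM factors, linear axes from 0) of the 10 clock genes in each of the 12 libraries; symbols give the replicate number, the horizontal line the group mean and the bar the SD (n = 3). In the male groups the triangles (number 3) lie highest for Arntl, Clock and Cry1 and lowest for Per1, Per2, Per3, Nr1d1, Nr1d2 and Dbp.

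The activators came first. Arntl (chromosome 7, 120350979 to 120457636 on the + strand of mm9) encodes a partner in the activator pair. It was at 20.5, 23.1 and 26.5 CPM in female WT libraries 1 to 3 and at 26.1, 25.9 and 29.6 CPM in female KO. It was at 33.4, 34.4 and 37.0 CPM in male WT and at 29.9, 31.5 and 34.5 CPM in male KO. The female WT replicates spread most, with library 1 low and library 3 high. Clock (chromosome 5), which encodes Arntl's usual partner, was at 66.9, 63.4 and 63.0 CPM in female WT and at 62.7, 60.9 and 64.1 CPM in female KO. Its male values were 73.6, 70.3 and 87.3 CPM in WT and 76.8, 74.8 and 80.9 CPM in KO. Every male library was above every female library for Clock and for Arntl, and number 3 was the highest in both male genotypes for both genes.

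The period genes encode the PER proteins that block the activator pair. Per1 (chromosome 11, 68908719 to 68923462, + strand), whose E-box window is shown above, was at 23.4, 25.4 and 24.3 CPM in female WT and at 25.1, 25.0 and 24.8 CPM in female KO. In male WT libraries it was at 24.5, 27.5 and 20.1 CPM, and in male KO libraries at 25.8, 23.2 and 17.6 CPM. The 6 female libraries lay close together, and both male number 3 libraries lay below all others. Per2 (chromosome 1) ran from 5.34 to 6.57 CPM in the female libraries. It was at 5.89, 5.24 and 4.95 CPM in male WT and at 5.37, 5.35 and 4.49 CPM in male KO, so number 3 was again lowest.

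Per3 (chromosome 4, 150377761 to 150418774, - strand) is the period gene that is least needed for the loop itself. It was at 3.79, 3.40 and 3.598 CPM in female WT and at 3.51, 3.47 and 3.45 CPM in female KO. It was at 7.86, 7.68 and 6.73 CPM in male WT and at 8.97, 7.84 and 5.77 CPM in male KO. The lowest male value was above the highest female value, and number 3 was lowest in both male genotypes.

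The cryptochromes are the partners of PER in that block. Cry1 (chromosome 10), which carries the E-box shown above, was at 15.2, 13.9 and 14.8 CPM in female WT and at 15.4, 15.95 and 16.1 CPM in female KO. It was at 12.7, 12.3 and 15.1 CPM in male WT and at 11.7, 12.5 and 13.8 CPM in male KO. Cry1 was thus high in the male number 3 libraries, with Arntl and Clock rather than with the Per genes. Cry2 (chromosome 2) ran from 27.0 to 31.5 CPM in female cells and from 20.1 to 25.1 CPM in male cells, and it was the single member for which number 3 was not at the same extreme in both male genotypes. Its 24.1 CPM in male WT library 3 was the highest of that group and its 20.1 CPM in male KO library 3 the lowest of the other.

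Nr1d1 and Nr1d2 encode nuclear receptors that repress Arntl. Nr1d1 (chromosome 11, 98629246 to 98636647, - strand) was at 34.5, 33.5 and 30.6 CPM in female WT and at 32.2, 30.3 and 32.3 CPM in female KO. It was at 29.9, 34.9 and 24.1 CPM in male WT and at 34.5, 32.4 and 22.4 CPM in male KO. Both male number 3 libraries lay below all 10 other libraries. Nr1d2 (chromosome 14) ran from 37.6 to 42.2 CPM in female cells, and was at 48.2, 51.2 and 43.1 CPM in male WT and 52.3, 50.5 and 42.6 CPM in male KO. Number 3 was lowest in both, though still above every female library.

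Dbp (chromosome 7, 52960458 to 52965525, + strand) encodes a factor that binds D-boxes and is among the most strongly cycling clock outputs. It was at 1.496, 1.53 and 1.64 CPM in female WT and at 1.40, 1.84 and 2.08 CPM in female KO. In male WT libraries it was at 2.46, 2.68 and 1.41 CPM, and in male KO libraries at 3.28, 2.82 and 1.28 CPM. The 4 male libraries numbered 1 and 2 lay above all others, and the male number 3 libraries fell into or below the female range.

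Nr1d1, Dbp and Cry2 share exon bases with a gene on the opposite strand: 263 bases with Thra, 491 with Sphk2 and 295 with D930015M05Rik, which is 8.4%, 16.7% and 4.7% of the member's exon bases. The strand setting of the counting is not given in the sources used here, so reads from these stretches cannot be told apart. Nr1d1 and Dbp had expected counts that were not whole in all 12 libraries and Cry2 in 8, while the other 7 members had whole counts throughout. In male libraries 1 to 3 Sphk2 was at 24.7, 24.4 and 21.6 CPM in WT and at 24.5, 25.7 and 21.0 CPM in KO, so number 3 was lowest for it too. Thra was at 18.2, 20.9 and 17.9 CPM in male WT and at 17.4, 18.3 and 17.01 CPM in male KO. D930015M05Rik did not pass 0.356 CPM in any library.

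The next question was whether the arms of the loop ran opposite between replicates, Arntl against the Per and Nr1d genes. Values are deviations of log2 CPM from the mean of the library's own group. In male WT library 3 Arntl deviated by 0.08, Clock by 0.19 and Cry1 by 0.18, while Per1 deviated by -0.24, Per2 by -0.11, Per3 by -0.14, Nr1d1 by -0.28, Nr1d2 by -0.14 and Dbp by -0.57. In male KO library 3 the values were 0.11 for Arntl, 0.06 for Clock and 0.13 for Cry1, against -0.32, -0.17, -0.36, -0.39, -0.18 and -0.82 for the same other genes. Cry2 deviated by 0.02 and -0.16. Of the members, number 3 was thus highest in both male genotypes for 3, where 25.3% of all genes tested were, and lowest in both for 6, where 26.9% were. The 9 of 10 members at an extreme stand beside 52.3% of all genes, and male number 3 was singled out after its values were seen.

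**Figure D2:**
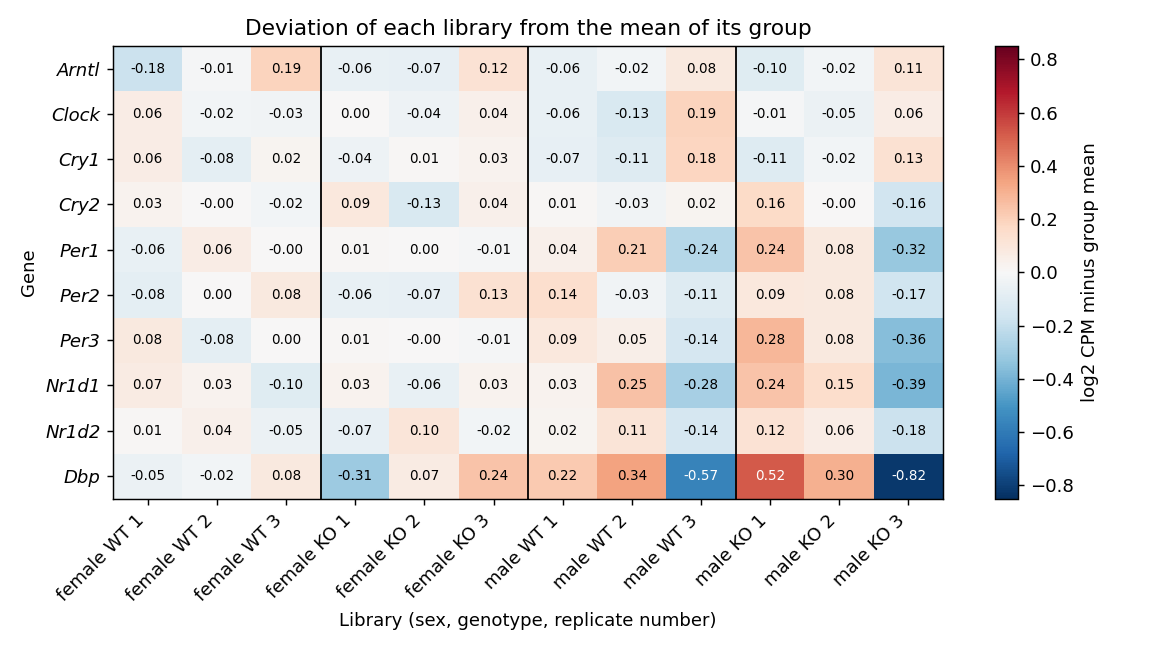
Deviation of log2 CPM from the group mean for each clock gene (rows) and library (columns), with the value in each cell and a colour scale from -0.85 to 0.85. The strongest values are those of Dbp, -0.57 and -0.82, in male WT 3 and male KO 3.

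**Figure D3:**
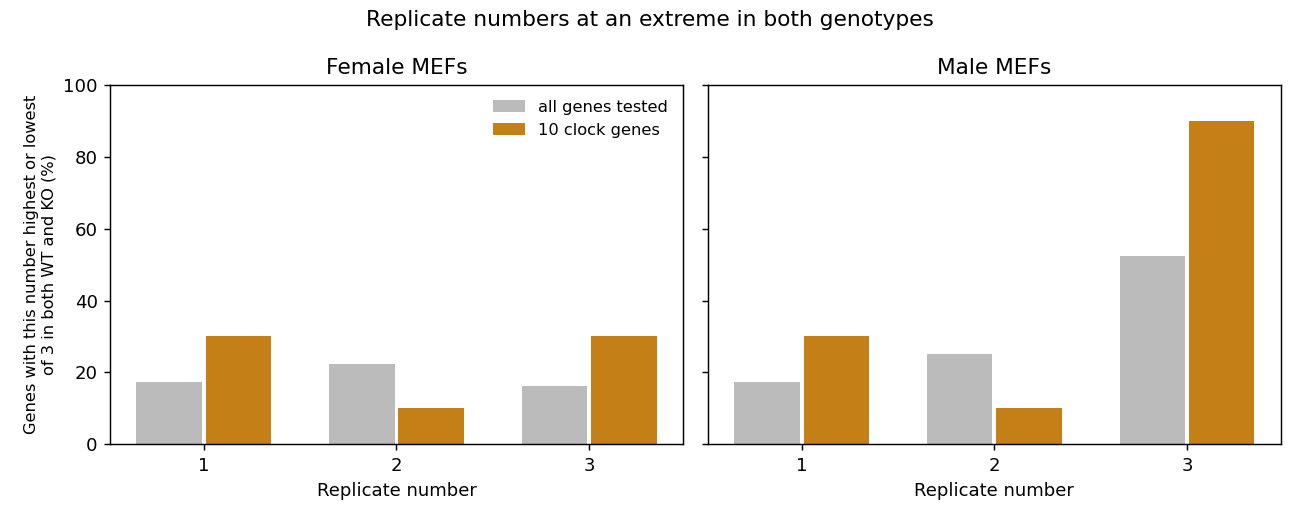
Share (%) of all 15387 genes tested (grey) and of the 10 clock genes (orange) for which a replicate number was the highest or the lowest of 3 in both genotypes, by sex. The tallest grey bar is male number 3, at 52.3%, and 9 of the 10 clock genes fall there.

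Over all 12 libraries the deviations of Arntl correlated with those of Nr1d2 at r = -0.581 (permutation p = 0.0394, adjusted 0.0656), with Per3 at r = -0.568 (permutation p = 0.0285, adjusted 0.0656) and with Nr1d1 at r = -0.566 (permutation p = 0.0324, adjusted 0.0656). The values for Per1 and Per2 were r = -0.43 (permutation p = 0.122, adjusted 0.152) and r = 0.06 (permutation p = 0.853, adjusted 0.853). The test permuted libraries within groups over all arrangements, exactly and two-sided, and the adjustment covered the 5 correlations, none of which passed 0.05. Spearman's rho was -0.559 for Nr1d2 (exact permutation p = 0.0702), -0.657 for Per3 (p = 0.0231), -0.483 for Nr1d1 (p = 0.137), -0.385 for Per1 (p = 0.257) and 0.007 for Per2 (p = 0.993), and the adjusted values ran from 0.116 to 0.993. Without the 2 libraries farthest from the median of the Arntl deviations, female WT 1 and 3, r was -0.718 for Nr1d2, -0.741 for Per3, -0.638 for Nr1d1, -0.721 for Per1 and -0.305 for Per2.

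Values within each sex were computed next. In the 6 male libraries r was -0.959 for Per3 and -0.925 for Per2 (exact permutation p = 0.0278 for each, the smallest that 36 arrangements allow), -0.916 for Per1 (exact p = 0.0833), -0.911 for Nr1d2 (exact p = 0.0556) and -0.891 for Nr1d1 (exact p = 0.0833). Their adjusted values were 0.0694 to 0.0833, and these r include the number 3 libraries, without which only 2 male libraries a group remain. In these 6 libraries 83.4% of all genes had a smaller absolute r with Arntl than Nr1d1, and 96.2% a smaller one than Per3. Large r with Arntl were common there, and Clock at r = 0.69 passed 52.4% of genes. Male rho ran from -0.943 for Per3 (exact permutation p = 0.0833) to -0.714 for Nr1d1 (exact p = 0.222), with adjusted values of 0.174 to 0.222. In the 6 female libraries Per2 moved with Arntl, at r = 0.917 (exact permutation p = 0.0278, adjusted 0.139) and rho = 0.943 (exact p = 0.0278, adjusted 0.139). Female r was 0.296 for Per1, -0.435 for Per3, -0.576 for Nr1d1 and -0.414 for Nr1d2, with exact permutation p of 0.389 to 0.972. The difference between the sexes was not tested.

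The male libraries numbered 3 carried much of the opposite run. Without these, over 10 libraries, r was 0.095 for Per1, 0.714 for Per2, -0.41 for Per3, -0.348 for Nr1d1 and -0.36 for Nr1d2 (exact permutation p = 0.826, 0.0486, 0.333, 0.444 and 0.382, adjusted 0.243 to 0.826). In female WT libraries Arntl spanned 20.5 to 26.5 CPM, Nr1d1 30.6 to 34.5 CPM and Per1 23.4 to 25.4 CPM. In female KO libraries the spans were 25.9 to 29.6 CPM for Arntl, 30.3 to 32.3 CPM for Nr1d1 and 24.8 to 25.1 CPM for Per1.

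**Figure D4:**
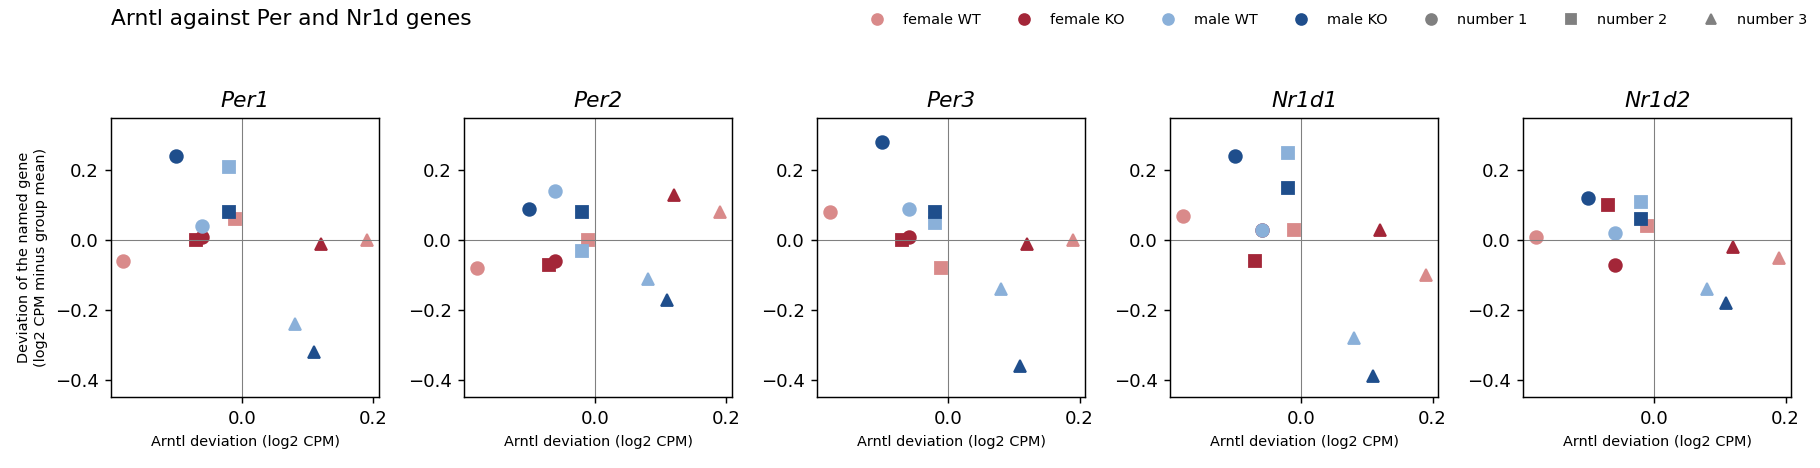
Deviation of Per1, Per2, Per3, Nr1d1 and Nr1d2 (y axes) against that of Arntl (x axes), all in log2 CPM minus group mean; each point is a library, coloured by group, with a symbol for its number. The 2 male triangles lie at the lower right in all 5 panels, and the female points lie between -0.1 and 0.13 on the y axes.

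Genes of other lists stood at an extreme in the same libraries. All 6 immediate early genes, which growth factors and fresh serum switch on quickly, were lowest in number 3 in both male genotypes, beside 26.9% of all genes. Fos was at 21.3, 33.8 and 11.3 CPM in male WT libraries 1 to 3 and at 28.9, 29.2 and 11.8 CPM in male KO. Fosb was at 22.0, 29.1 and 6.52 CPM and at 27.5, 26.3 and 5.42 CPM. Of 5 glucocorticoid responsive genes tested, Sgk1 and Klf9 were lowest there, Tsc22d3 highest, and Fkbp5 and Dusp1 neither. All 5 proliferation markers were highest there, beside 25.3% of all genes, with a summed 996, 1009 and 1178 CPM in male WT libraries and 1023, 1100 and 1460 CPM in male KO libraries. Markers of cell types stood apart there too. The summed 5 epithelial markers were at 7.86, 5.08 and 12.15 CPM in male WT libraries 1 to 3 and at 5.603, 5.66 and 13.5 CPM in male KO, highest in number 3, with Krt8 and Krt18 highest in both. The summed 10 fibroblast markers were lowest there, at 19590, 19750 and 15050 CPM in WT and at 18540, 19900 and 14990 CPM in KO, with Col1a2, Col5a1 and Fn1 lowest and Col3a1, Dcn and Pdgfra highest in both. Of 4 muscle markers Des was highest in both, and none of the 6 macrophage or 4 endothelial markers was at an extreme in both. The part of these lists, or of depth, in the clock gene values was not tested.

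For 9 of the 10 members the spread between replicates was larger in the male libraries while number 3 was in, and the difference between the sexes was not tested. The replicate SD of log2 CPM was 0.616 in male and 0.206 in female libraries for Dbp, 0.305 and 0.0736 for Nr1d1, 0.258 and 0.0419 for Per1, and 0.245 and 0.0546 for Per3. Arntl was at 0.0925 in male and 0.152 in female libraries. Over all genes tested the medians were 0.136 in male and 0.0948 in female libraries. Without number 3 the male SD was 0.123 for Dbp, 0.12 for Nr1d1, 0.115 for Per1, 0.0987 for Per3 and 0.044 for Arntl, with a median of 0.0706 over all genes, from 2 libraries a group. Of all genes, 89.2% had a smaller biological coefficient of variation than Dbp (0.28), 65.5% than Nr1d1 (0.134) and 33.9% than Clock (0.0661).

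KO was then compared with WT. None of the 10 members was called in female MEFs, by edgeR at adjusted p under 0.01 with an absolute log2 fold change over 1, where 0.0065% of all genes tested were called, nor at adjusted p under 0.05 alone, where 0.013% were. None was called in male MEFs either, by both rules, where 0.0065% of all genes were. At an unadjusted p under 0.05 the female comparison held 1 member (Arntl) and 1162 genes in all, and the male comparison 0 members and 317 genes. DESeq2 called no member in either sex at adjusted p under 0.01 or 0.05.

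In female MEFs the largest member value was that of Arntl, at 23.4 ± 3.02 CPM in WT and 27.2 ± 2.08 CPM in KO (SD, n = 3). Its log2 fold change was 0.22 (SE 0.094, 95% interval 0.01 to 0.42, unadjusted p = 0.0406, edgeR adjusted p = 0.637), and the groups overlapped. It was 0.13 without female WT replicate 1, 0.15 without female KO replicate 3 and 0.32 without female WT replicate 3. In male MEFs Arntl had a log2 fold change of -0.13 (SE 0.092, interval -0.33 to 0.07, edgeR adjusted p = 1). The difference of these effects was 0.35 (SE 0.131, unadjusted p = 0.023, adjusted p = 1), and 0 of 10 members passed either rule for it, as did 0% of all genes, of which 491 had an unadjusted p under 0.05. Without the male number 3 libraries the difference for Arntl was 0.36 (edgeR adjusted p = 0.591).

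The other 9 members had log2 fold changes of -0.15 to 0.19 in female and -0.11 to 0.17 in male MEFs. For Clock the 95% intervals were -0.20 to 0.11 in female and -0.15 to 0.16 in male MEFs, and for Nr1d1 they were -0.40 to 0.28 and -0.33 to 0.34. The widest intervals were those of Dbp, -0.54 to 0.93 and -0.53 to 0.88. Without the male number 3 libraries, which share the estimate of spread with the female ones, the Dbp intervals were -0.17 to 0.55 in female and -0.17 to 0.65 in male MEFs, those of Nr1d1 -0.21 to 0.09 and -0.14 to 0.22, and those of Clock -0.13 to 0.04 and -0.03 to 0.17. The median absolute log2 fold change of the members was 0.06 in female and 0.08 in male MEFs, against 0.083 and 0.057 over all genes tested. Cry1 was the member whose female KO and WT libraries did not overlap, with KO higher (log2 fold change 0.11, edgeR adjusted p = 0.793), and 19.1% of all genes did not overlap in that comparison. In male MEFs no member's groups stood apart, and 5.29% of all genes' did.

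**Figure D5:**
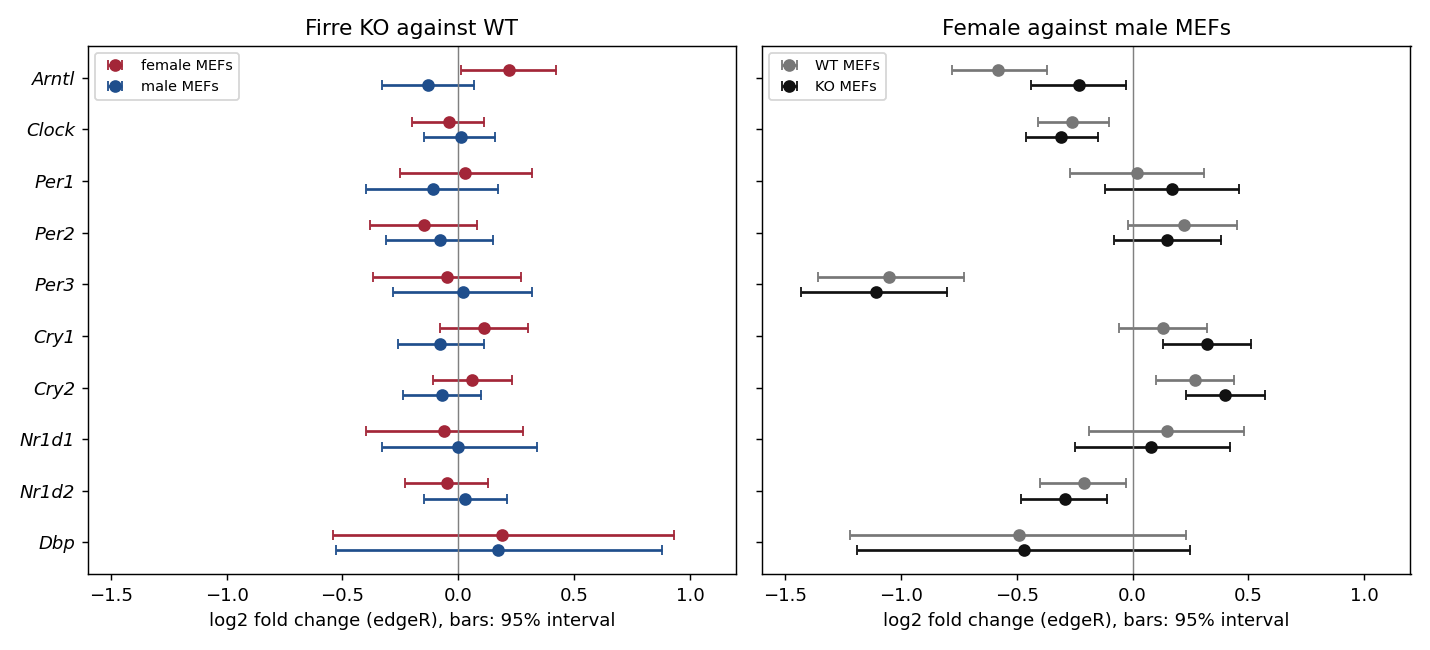
Log2 fold change (edgeR) with its 95% interval for each clock gene: Firre KO against WT in female and male MEFs (left) and female against male MEFs in WT and KO (right). All left-hand intervals but that of Arntl in female MEFs include 0, and Per3 lies at -1.05 and -1.11 on the right.

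Between female and male MEFs more genes were called than between KO and WT, 698 in WT and 599 in KO cells, against 1 for KO in each sex. The same libraries serve in both kinds of comparison. Per3 was lower in female cells, at 3.596 ± 0.192 CPM against 7.43 ± 0.608 CPM in WT, a log2 fold change of -1.05 (SE 0.142, interval -1.36 to -0.73, edgeR adjusted p = 0.000306). In KO cells it was at 3.48 ± 0.03 CPM against 7.52 ± 1.63 CPM, a log2 fold change of -1.11 (SE 0.142, edgeR adjusted p = 0.000216). It was the only member called at adjusted p under 0.01 with an absolute log2 fold change over 1, in WT, where 4.54% of all genes were called, and in KO, where 3.89% were. Without male KO replicate 1 its KO value was -0.97, which no longer passed the fold limit, and without the male number 3 libraries it was -1.11 in WT and -1.27 in KO.

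At adjusted p under 0.05 alone, 4 of 10 members passed in WT and 5 of 10 in KO, beside 38.7% of all genes in each. In WT cells the others were Arntl (log2 fold change -0.58, SE 0.093, edgeR adjusted p = 0.000846) and Clock (-0.26, SE 0.071, adjusted p = 0.0142), both lower in female cells, and Cry2 (0.27, SE 0.077, adjusted p = 0.0183), which was higher. In KO cells they were Clock (-0.31, SE 0.071, adjusted p = 0.00594) and Nr1d2 (-0.29, SE 0.083, adjusted p = 0.0166), lower in female cells, and Cry1 (0.32, SE 0.086, adjusted p = 0.0134) and Cry2 (0.40, SE 0.078, adjusted p = 0.00244), higher. Clock, Per3 and Cry2 passed in both genotypes. Some of these calls were lost without 1 library. In WT, Clock had an adjusted p of 0.0506 without female WT replicate 3, and Cry2 of 0.0558 and 0.0559 without female WT replicate 1 and male WT replicate 2. In KO, Cry1 had an adjusted p of 0.0555 without male KO replicate 1. Nr1d2 had one of 0.0525 to 0.0664 in KO without any single one of male KO replicates 1 and 2 and female KO replicates 1 and 3. Other calls were gained in the same way. Arntl passed in KO without female WT replicate 1 or 3 or female KO replicate 3 (lowest adjusted p = 0.039), and Dbp without male KO replicate 3 (0.0336). In WT, Cry1 passed without male WT replicate 3 (0.0381) and Nr1d2 without either male number 3 library (lowest 0.0223). The libraries of the sexes did not overlap for 5 members in WT and 6 in KO, beside 51.9% and 50.2% of all genes.

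Per1 and Nr1d1 had log2 fold changes of 0.02 and 0.15 in WT and of 0.17 and 0.08 in KO, and neither passed in either genotype. Without the male number 3 libraries Per1 was at -0.09 in WT and 0.03 in KO, and Nr1d1 at 0.02 in WT and -0.08 in KO, so the sign of Per1 in WT and of Nr1d1 in KO turned. Dbp, at -0.49 in WT (SE 0.33, edgeR adjusted p = 0.266) and -0.47 in KO (SE 0.327, edgeR adjusted p = 0.276), did not pass while the male number 3 libraries were in. Without these it was -0.73 in WT (edgeR adjusted p = 0.0074) and -0.78 in KO (adjusted p = 0.00495), the libraries left out being those with the lowest male Dbp. Without male WT replicate 2 it was instead -0.32 in WT (edgeR adjusted p = 0.535), and without male KO replicate 1 it was -0.22 in KO (adjusted p = 0.669). Without the male number 3 libraries Cry1 and Nr1d2 also passed 0.05 in WT. This made 7 members in WT, beside 45.1% of all genes in that fit, and 6 in KO, beside 44.6%. Male WT number 3 was the highest of its group for Cry1 and the lowest for Nr1d2, so leaving it out widened both differences. Other lists moved with this comparison. All 6 macrophage and all 5 epithelial markers were higher in female WT cells at adjusted p under 0.05, and all 6 and 1 of 5 in female KO cells. Of 4 endothelial markers 3 were higher in female WT and 1 in female KO cells, and of 4 muscle markers 1 (Myog) and 2 (Myod1 and Myog). Of 10 fibroblast markers Col1a2, Col5a1 and Pdgfrb were lower in female cells in both genotypes, Pdgfra was lower in KO, and Lum was higher in both. The 5 proliferation markers split, with 1 higher and 1 lower in each genotype. The summed epithelial markers were at 17.9 to 46.99 CPM in female and 5.08 to 13.5 CPM in male libraries. Immediate early genes were lower in female cells, 6 of 6 in WT and 5 of 6 in KO, with Fos at 5.10 against 22.1 CPM and Egr1 at 46.1 against 203 CPM in WT. The part of these genes, and of the greater depth of the male libraries, in the clock gene differences was not tested. In bulk libraries fewer cells of a kind and less RNA per cell cannot be told apart.

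Of 27 further clock genes, 26 were tested. These were paralogues and partners, the ROR and NFIL3 loop, other D-box factors, enzymes acting on PER and CRY, and outputs. None passed adjusted p under 0.05 for KO against WT in either sex, and the smallest p was that of Rora, an activator of Arntl, in female MEFs (7.92 CPM in WT, 6.12 in KO, log2 fold change -0.37, edgeR adjusted p = 0.492). Between the sexes 9 passed in WT (3 higher and 6 lower in female cells) and 9 in KO (2 higher and 7 lower), which is 34.6% of those tested in each, beside the 38.7% of all genes. Without the male number 3 libraries 13 passed in WT and 14 in KO, beside 45.1% and 44.6%, and Csnk1e no longer passed in WT.

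Among them Arntl2, the paralogue of Arntl, was lower in female cells, at 3.72 against 7.96 CPM in WT (log2 fold change -1.1, edgeR adjusted p = 3.34e-05) and 3.90 against 8.41 CPM in KO (-1.11, edgeR adjusted p = 2.93e-05). Bhlhe40 was lower (-0.56 and -0.61) and its paralogue Bhlhe41 higher (0.72 and 0.56), both being repressors at E-boxes. Nfil3, which represses at D-boxes, was lower (-0.38 and -0.35), and Rora was lower in KO (-0.44). Hlf, a D-box activator like Dbp, was higher in WT (1.40) at 0.408 against 0.155 CPM. Of the enzymes, Csnk1e was higher (0.17 and 0.23), Csnk2a1 was lower (-0.35 and -0.33), and Btrc was lower in KO (-0.27). Por, an output, was lower in WT (-0.32).

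In the male number 3 libraries 15 of these 26 genes were at an extreme in both genotypes, 4 highest and 11 lowest, beside the 52.3% of all genes. Gm129 (Ciart), a repressor of the activator pair, was at 3.07, 2.66 and 1.52 CPM in male WT libraries 1 to 3 and at 3.10, 2.73 and 1.74 CPM in male KO. Tef, a D-box factor, was at 49.3, 47.9 and 40.2 CPM in male WT and at 48.6, 48.1 and 38.7 CPM in male KO. Wee1, a cell cycle kinase whose promoter is a target of the clock, was high there instead, at 12.3, 10.8 and 16.9 CPM in WT and at 12.4, 12.9 and 17.97 CPM in KO.

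The genes most like a member between replicates were ranked by Pearson's r of the group-centred log2 CPM over the 12 libraries, as a description. For Arntl the highest were Rgs7 (0.968), Gm12592 (0.931) and Tnfrsf18 (0.926), and the lowest Gm13684 (-0.977), RP24-92H14.2 (-0.932) and Aarsd1 (-0.92). For Dbp the highest were Tbc1d9b (0.99), Tbcd (0.984) and Bax (0.979), and the lowest B230206F22Rik (-0.981), Zfp229 (-0.979) and Zfp60 (-0.976). No member was among these. The median absolute r over all genes was 0.303 with Arntl and 0.49 with Dbp, and the libraries share the male number 3 shift described above. Among the members, Per1 was closest to Dbp at r = 0.91, with 97.9% of genes at a smaller absolute r, followed by Nr1d2 (0.89), Nr1d1 (0.88), Per3 (0.87) and Per2 (0.79), and Cry1 (-0.78) and Clock (-0.69) ran against it. These values changed without the male number 3 libraries. Over the other 10 r with Dbp was 0.29 for Per1, 0.42 for Nr1d2, 0.05 for Nr1d1, 0.13 for Per3, 0.44 for Per2, 0.12 for Cry1 and 0.0 for Clock. In the 6 female libraries it was -0.1 for Per1, 0.32 for Nr1d2, -0.3 for Nr1d1, -0.19 for Per3, 0.67 for Per2, 0.43 for Cry1 and -0.01 for Clock. With Arntl the largest member value was that of Nr1d2, at -0.58, with 89.2% of genes at a smaller absolute r, and -0.36 without the male number 3 libraries.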

How the data were processed

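RNA-seq of 12 MEF libraries was used. Per the labels and the study's methods, total RNA was made into TruSeq version 2 libraries and the authors aligned reads with Bowtie 2 to mm9 and estimated genes with RSEM 1.2.29. The deposited values are expected counts per gene (37310 genes), not normalized. They were rounded to whole numbers here. Genes low in all groups were removed (filterByExpr), which left 15387, and groups were compared with edgeR 4.0.16 (quasi-likelihood test, TMM factors, all 12 libraries in 1 fit, 8 residual degrees of freedom, Benjamini-Hochberg adjustment over all genes tested) in R 4.3.3. A gene was called at adjusted p under 0.01 with an absolute log2 fold change over 1, and adjusted p under 0.05 alone was counted beside it. Alternatives included DESeq2 1.42.0 with a mean dispersion fit. CPM used TMM-scaled totals, and log2 CPM a prior count of 2. Correlations between replicates were tested by exact permutation within groups. Coordinates come from the mm9 annotation that matched all row names, and promoter sequences from RefSeq (GRCm38.p6). The fits and correlations were tested on simulated data. Genes named were the 10 members, Firre, the genes overlapping a member, wider list genes at adjusted p under 0.05 or with the smallest p, and the 3 highest and 3 lowest correlations with Arntl and with Dbp, to which genes moving with the male number 3 libraries were added after their values were seen. Members and lists were chosen with earlier results of these data known. Totals were 42986516 to 65454660 per library, and Dbp had the fewest counts of the members. Hi-C and ChIP-seq samples were not used here. The values of 1 further clock gene that passed are not reported here.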

Additional observations from a re-analysis of the deposited data

How the results depend on the processing

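No member was called for KO against WT, or for its difference between the sexes, under any alternative run, by either rule. All 200 female values kept their sign; 19 of 200 male values and 13 of 190 differences changed it, all of them uncalled, as did 3 of 200 values between the sexes in WT (Per1) and 2 of 200 in KO (Nr1d1).

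Genes called for KO against WT numbered 1 in each sex, 4 in each with DESeq2, 0 in each with only the 6 libraries compared or with a replicate block, and 2 in female MEFs at adjusted p under 0.05; DESeq2 called 2 for the difference between the sexes, where edgeR called 0. For female against male, 698 genes were called in WT and 599 in KO, and 5953 and 5949 at adjusted p under 0.05 with no fold limit, which took the members called from 1 to 4 and to 5. Only the 6 libraries compared gave 370 in KO. Leaving out each library gave 432 to 763 in WT (432 without male WT replicate 1) and 329 to 621 in KO (329, 342 and 376 without male KO replicate 1, male KO replicate 2 and female KO replicate 1), 0 to 1 members called in KO, and 3 to 6 members at adjusted p under 0.05 in each (0 called and 3 at 0.05 in KO without male KO replicate 1). Without the 2 male libraries numbered 3, an alternative chosen after seeing the data like the count of members at adjusted p under 0.05, 7 members passed 0.05 in WT. With a replicate block Arntl passed 0.05 in KO (edgeR adjusted p = 0.0066) and Nr1d2 in WT (edgeR adjusted p = 0.0235). Nr1d2 also passed in WT with only the 6 libraries compared (edgeR adjusted p = 0.0457).

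The correlations of Arntl depended on the libraries. Leaving out each gave -0.661 to -0.224 for Per1, -0.182 to 0.418 for Per2, -0.756 to -0.497 for Per3, -0.657 to -0.446 for Nr1d1 and -0.708 to -0.466 for Nr1d2; Per3 passed 0.05 without female WT replicate 2 or 3. Per1 was 0.296 in female libraries and 0.095 without the male libraries numbered 3, and Per2 was -0.925 in male libraries. With the mean of each number removed as well (replicate block), r was 0.51 for Per1, 0.557 for Per2, 0.197 for Per3, 0.273 for Nr1d1 and 0.056 for Nr1d2. Numbers were not taken as pairs: over all genes, same-numbered WT and KO libraries correlated at -0.164, -0.118 and -0.152 in female and 0.097, 0.216 and 0.333 in male MEFs, and not every library correlated best with its own number. Dbp had the fewest counts (61.6 to 194); its SE for KO in female MEFs was 0.335, and 0.161 without the male libraries numbered 3.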
